A study of Mus musculus with 6 samples.

Results

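The Bcl2 family decides whether the outer membrane of the mitochondrion stays closed or is opened, and 10 of its genes were followed here in frozen and thawed mouse germline stem (GS) cells: Bcl2, Bcl2l1, Mcl1, Bax, Bak1, Bcl2l11, Bid, Bad, Bbc3 and Pmaip1. They were taken by gene name from a table of raw counts with 32285 genes, all 6 libraries were used, and each name matched 1 row. All 10 passed the filter on low counts that left 15104 genes for testing.

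The family works as a balance inside the cell. Survival members (Bcl2, Bcl-xL from Bcl2l1, and Mcl1) hold the effectors Bax and Bak in check, and free effectors form pores through which cytochrome c leaves the mitochondrion and starts the caspase cascade. The BH3-only members (Bim from Bcl2l11, Bid, Bad, Puma from Bbc3, and Noxa from Pmaip1) are sensors of damage and of lost growth factor signals that block the survival members, activate the effectors, or do both. In the male germ line this balance sets how many spermatogonia survive, and loss of Bax or an excess of Bcl2 or Bcl-xL in mice is known to disturb the first wave of spermatogenesis.

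GS cells are spermatogonia grown in culture on mouse embryonic fibroblast feeders with GDNF and FGF2. All libraries came from cells of the DBA/2 strain with the genotype DBA/Tg14(act-EGFP-OsbY01), in which an actin promoter drives EGFP broadly, derived from the testes of mice 2 to 3 days old. The cells were stored frozen for 6 months on the International Space Station (the 3 libraries titled Space) or on Earth (the 3 titled Ground). The study states that cells for RNA were taken the day after thawing, before any passage. It also reports that only part of the cells survived the thaw. The comparison asks whether storage in orbit changed the transcripts of the cells. The treatment label of each library states the opposite of its title. Groups follow the titles, since the table's columns and the study itself use those names, and every direction given here would turn if the treatment labels were right. The study names 3 lines for Space and Ground, without saying whether both groups shared them. No label says which library came from which line, and p-values measure the spread between these libraries.

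Total counts were between 19015985 and 24110916 per library, and 3 counts, taken as the floor, corresponded to 0.120 to 0.160 CPM, the share of a library's counts after its size was adjusted by TMM (a trimmed mean of ratios between libraries). Markers of undifferentiated spermatogonia (Ddx4, Zbtb16, Gfra1, Etv5 and others) were above 1 CPM in every library for 12 of 12 genes, as for the labelled cell type, and summed to 3249 to 3674 CPM in Ground and 3312 to 3695 CPM in Space. Markers of feeder fibroblasts were present too, with 13 of 16 genes above 1 CPM in every library, and summed to 939 to 980 CPM in Ground and 804 to 989 CPM in Space. Sertoli markers summed to 24.6 to 28.0 CPM, with 2 of 6 genes above 1 CPM in every library. These were Wt1 (16.1 to 19.7 CPM) and Sox9 (4.41 to 9.60 CPM), while Fshr was at 0 everywhere. Macrophage markers summed to 14.1 to 22.6 CPM. Of these, 1 of 5 was above 1 CPM in every library, Cd68 at 14.0 to 22.0 CPM. Mitochondrially encoded transcripts made up 3.09%, 11.5% and 5.69% of counts in Ground libraries 1, 2 and 3, and 2.51%, 7.12% and 2.81% in Space libraries 1, 2 and 3. In such bulk RNA, fewer cells of a type and less RNA per cell cannot be told apart.

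Promoters of the members were read to show which well known control sequences lie close to their starts. Windows from 250 bases before to 50 bases after a transcript start came from RefSeq (GRCm38.p6), which held 15 windows for 9 of the 10 members. Pmaip1 had no entry. On both strands, 5 motifs were searched: the p53 half-site by its name, the forkhead site GTAAACA bound by Foxo factors, 2 E2F sites (TTTCGCGC and TTTGGCGC) and the cAMP response element TGACGTCA. The 4 stretches that held a match are printed 5′ to 3′ along the strand of the gene, with the match in capitals.
Bax, p53 half-site, chr7:45467080-45467109, minus strand: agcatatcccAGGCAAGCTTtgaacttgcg
Bbc3, forkhead site, chr7:16310084-16310110, plus strand: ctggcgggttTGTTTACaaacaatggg
Bcl2l11, forkhead site, chr2:128125801-128125827, plus strand: agacactaggGTAAACAcgccggggtg
Bcl2l1, E2F site, chr2:152830845-152830872, minus strand: ccgcgtccctGCGCGAAAccttgagatt
The Bbc3 and Bcl2l1 matches are on the strand opposite to the gene, so their capitals are the motif in reverse complement. Both lie inside the annotated gene, before an internal start and not at its outermost 5′ end. Each of these genes had 3 windows. Among all 32851 windows of this length, 8.36% held the p53 half-site, 3.65% the forkhead site and 0.323% the first E2F site. The second E2F site and the cAMP response element were in 0.514% and 1.79% of windows and in no window of a member. A match is a description of the letters and not a measured site, and the absence of one says only that these letters are not in the window.

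Levels between genes were compared per length, as CPM per kilobase of all exons of the gene (FPKM), averaged over the 6 libraries. Bax had the highest level, 92.5 FPKM (range 87.2 to 99.5), followed by Mcl1 with 40.9 FPKM (35.8 to 45.3). Bid and Bcl2l1 came next with 20.1 and 19.1 FPKM, and their ranges overlapped. Pmaip1 stood at 11.9 FPKM (10.2 to 14.7) and did not overlap with its neighbours in the order. Bad (4.52 FPKM), Bbc3 (3.10), Bcl2l11 (2.44) and Bak1 (1.46) formed a lower series in which each range overlapped with the next. Bcl2, the founding member, was lowest at 0.0907 FPKM (0.0630 to 0.144), and the mean of Bak1 was 16.0 times higher. Among the 3 survival members, Bcl2 made up 0.101% to 0.227% of their summed FPKM, and of the sum of Bax and Bak1, Bax made up 97.8% to 99.1%. These sums leave out relatives that are no members: Bcl2l2, the survival gene for Bcl-w, had 4.73 FPKM (6.77% to 7.98% of a survival sum that includes it), and Bok, a relative of the effectors, had 10.7 FPKM, with which Bax made up 85.5% to 91.8% of the effector sum. Bcl2l2 and Bok were chosen after their values were seen. The levels depend on the length used: with the longest transcript in place of all exons, the means of Bcl2l1, Bad and Bcl2l11 were 1.79, 1.67 and 1.59 times as high, and that of Mcl1 was the same.

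**Figure D1:**
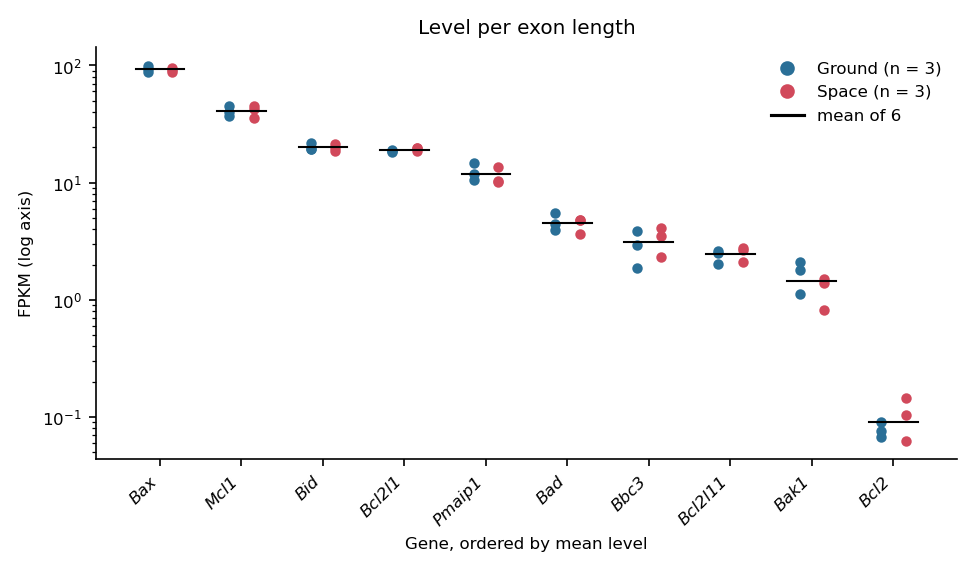
Level per length (FPKM, log axis) of each of the 10 genes, in order of the mean over 6 libraries, with 1 point per library. Bax is highest at a mean of 92.5 and Bcl2 lowest at 0.0907, and the points of the Ground and Space libraries lie together for each gene.

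Some members share exon bases with other genes. Whether strand was used in counting is not given in the sources used here. Of the exon bases of Bad, 20.5% overlap Gpr137 on the opposite strand, and of those of Bid, 17.7% overlap Bcl2l13. Bak1 overlaps Ggnbp1, carried under 2 identifiers, over 7.35% and 18.2% of its exon bases, and Bcl2 overlaps an antisense RNA over 6.09%. Bax shares 12.2% of its exon bases with Gm45808 on the same strand. How far such reads shift the levels of these members was not measured, and the share of exon bases does not bound it.

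Among survival genes, Mcl1 (chromosome 3, 95658788 to 95663176, plus strand; GRCm38 for all positions), whose short-lived protein needs steady transcription, had 155, 127 and 136 CPM in Ground libraries 1 to 3 and 145, 122 and 153 CPM in Space libraries 1 to 3. Library 2 was lowest in both groups and the groups overlapped. The means were 139 ± 14.1 and 140.2 ± 16.0 CPM (SD, n = 3), with a log2 difference, Space minus Ground, of 0.0084 (SE 0.10). Bcl2l1 (chromosome 2, 152780668 to 152831728, minus strand), which encodes Bcl-xL, had 84.2, 85.5 and 87.9 CPM in Ground and 91.2, 90.6 and 85.2 CPM in Space. It was the steadiest member: the highest library was 1.08 times the lowest, and only 7.06% of tested genes had a smaller SD of log2 CPM. Its log2 difference was 0.052 (95% interval −0.078 to 0.18). Bcl2 (chromosome 1, 106538178 to 106714274, minus strand) had 0.823, 0.692 and 0.614 CPM in Ground and 0.577, 0.959 and 1.32 CPM in Space. These were 13 to 33 counts per library, the Space libraries held both the lowest and the highest value, and the log2 difference of 0.42 had an interval of −0.46 to 1.30.

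Among effectors, Bax (chromosome 7, 45461697 to 45466898, minus strand), which moves from the cytosol to mitochondria when activated, had 148, 137 and 157 CPM in Ground and 149.8, 138 and 144 CPM in Space. The libraries differed by at most 1.14 times and the groups overlapped, with a log2 difference of −0.033 (interval −0.19 to 0.12). Bak1 (chromosome 17, 27019810 to 27029009, minus strand), whose protein sits in the outer membrane of mitochondria, had 5.06, 4.31 and 2.72 CPM in Ground and 1.98, 3.62 and 3.32 CPM in Space, from 48 to 123 counts. Space library 1 was lowest, Ground library 3 was second lowest, and the groups overlapped. The means were 4.03 ± 1.20 and 2.97 ± 0.876 CPM, and the log2 difference of −0.44 (SE 0.32, interval −1.18 to 0.29) was the most negative of the 10. Feeder fibroblast markers summed to 980, 964 and 939 CPM in Ground and 804, 989 and 894 CPM in Space. In Space 15 of 16 were lower, none past the threshold, while 48.7% of all tested genes were higher. Fn1 (376 to 465 CPM) and Col5a1 (231 to 307 CPM) weigh most in the sum. Col5a1 was the 1 marker higher in Space (log2 difference 0.020). Endothelial markers summed to 22.0, 15.3 and 12.1 CPM in Ground and 11.5, 14.1 and 20.5 CPM in Space. Both sums were lowest in Space library 1, as Bak1 was. The next lowest was Space library 3 for the feeder sum and Ground library 3 for the endothelial sum. Markers of differentiating spermatogonia and meiotic cells summed to 362, 372 and 326 CPM in Ground and 322, 362 and 358 CPM in Space. This sum too was lowest in Space library 1, with Ground library 3 next. Markers of undifferentiated spermatogonia, the main cell type, summed to 3674, 3524 and 3249 CPM in Ground and 3312, 3514 and 3695 CPM in Space. Their sum and the Sertoli sum were lowest in Ground library 3, with Space library 1 next. The macrophage sum was lowest in Ground library 3, with Ground library 2 next. The part of these cell types in the Bak1 values was not tested.

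Of the BH3-only genes, Pmaip1 (chromosome 18, 66458533 to 66465565, plus strand), whose product Noxa binds chiefly Mcl1, had 29.0, 32.2 and 40.1 CPM in Ground and 37.1, 28.1 and 27.9 CPM in Space. Ground library 3 and Space library 1 were highest, and the log2 difference was −0.12 (SE 0.16). Bbc3 (chromosome 7, 16308393 to 16318205, plus strand), the p53 target Puma, had 8.27, 3.99 and 6.23 CPM in Ground and 8.65, 4.96 and 7.44 CPM in Space. Library 2 was lowest in both groups, and the log2 difference was 0.18 (SE 0.30). Bcl2l11 (chromosome 2, 128126038 to 128162547, plus strand), which encodes Bim and is induced on growth factor loss, had 20.8, 20.1 and 16.1 CPM in Ground and 16.9, 21.5 and 22.0 CPM in Space. Bad (chromosome 19, 6941861 to 6951899, plus strand), which is kept inactive by Akt phosphorylation, had 14.2, 11.3 and 10.1 CPM in Ground and 9.27, 12.3 and 12.2 CPM in Space. In both, Ground library 3 and Space library 1 were the lowest libraries. Bid (chromosome 6, 120891930 to 120916853, minus strand), which is cleaved by caspase 8, had 68.5, 77.6 and 68.8 CPM in Ground and 66.5, 75.8 and 70.1 CPM in Space. Here library 2 was highest in both groups. The log2 differences of Bcl2l11, Bad and Bid were 0.083 (SE 0.14), −0.082 (SE 0.18) and −0.016 (SE 0.078).

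**Figure D2:**
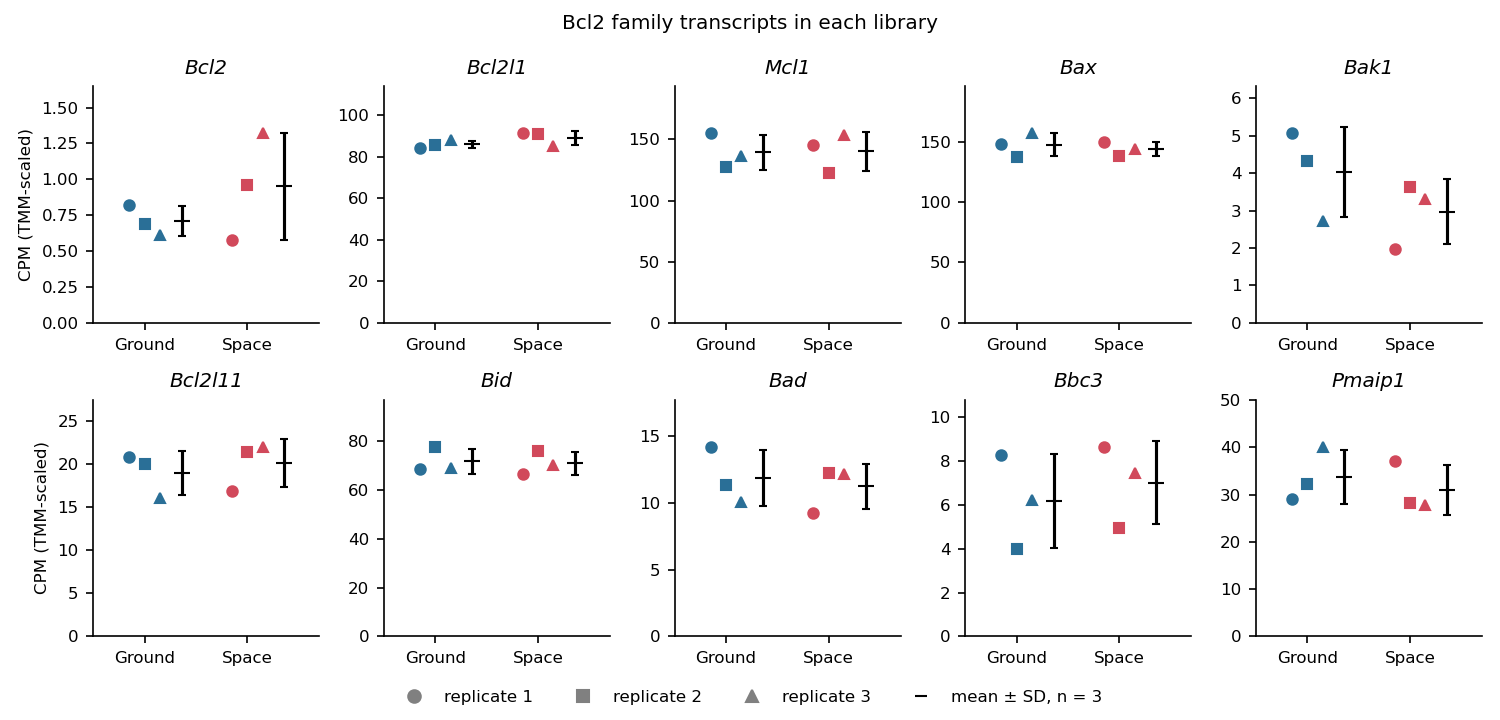
TMM-scaled CPM (linear axes from 0, a scale of its own for each gene) in each library, with Ground and Space side by side, 1 point per library and the mean marked. The ranges of the groups overlap for all 10 genes.

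No member passed the test of Space against Ground. With the quasi-likelihood F test of edgeR, 0 of 10 members passed an adjusted p of 0.05, with 0% of all 15104 tested genes passing (0 genes), and each member had an adjusted p of 0.9999. At an unadjusted p under 0.05 there were 0 of 10 members and 92 genes, 0.609% of those tested, and DESeq2 and limma-voom also called 0 of 10 members. The smallest unadjusted edgeR p of the members was that of Bak1, 0.198, with an adjusted p of 0.9999. In exact 2-sided permutation tests of log2 CPM, where 3 libraries against 3 cannot go below 0.1, p lay between 0.3 (Bcl2l1) and 1 (Mcl1). In 0 of 10 members did the CPM of the groups fail to overlap, against 3.59% of all tested genes (1.61% higher and 1.98% lower in Space). There were 5 members higher in Space and 5 lower, beside 48.7% of all tested genes higher, and the median log2 difference was −0.0040, beside −0.0020 for all tested genes. The 95% interval, which is not adjusted for the number of genes tested, stayed within 1.5-fold in either direction for 7 members (Bcl2l1, Mcl1, Bax, Bcl2l11, Bid, Bad and Pmaip1) and was wider for Bcl2, Bak1 and Bbc3.

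**Figure D3:**
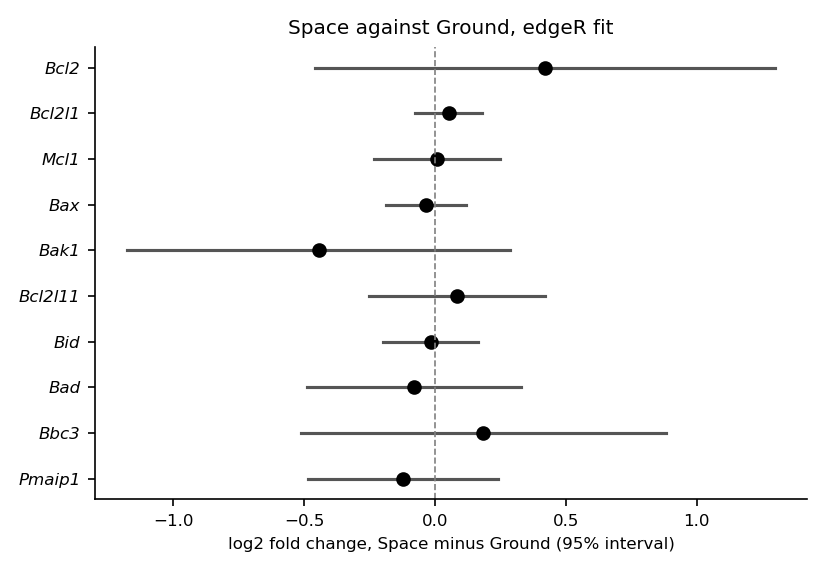
Log2 difference in CPM, Space minus Ground, of the 10 genes with 95% intervals from the edgeR fit of 6 libraries. Every interval includes 0, and those of Bcl2, Bak1 and Bbc3 are the widest.

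The balance of the roles is described without a test. Summed over the members of each role, survival genes had 63.7, 56.0 and 59.0 FPKM in Ground and 62.4, 55.6 and 63.5 FPKM in Space, and the effectors had 96.1, 89.0 and 100.6 FPKM in Ground and 95.9, 89.4 and 92.8 FPKM in Space. The BH3-only sum of the members was the tightest, at 41.0 to 42.9 FPKM over all 6 libraries. It leaves out BH3-only genes that are no members, such as Bmf (8.49 FPKM) and Bik (5.44 FPKM), chosen after their values were seen. Both were lowest in Space library 1 and Ground library 3, and a sum that includes them was not computed. The survival sum was 0.626 ± 0.0384 times the effector sum in Ground (SD over 3 libraries) and 0.653 ± 0.0311 times in Space, and the libraries overlapped. The FPKM of Mcl1 was 1.81 to 2.47 times that of Bcl2l1 with the length of all exons, and 1.01 to 1.38 times with that of the longest transcript.

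The spread between libraries was not equal for every member. The highest library exceeded the lowest by 2.56 times for Bak1, 2.29 times for Bcl2 and 2.17 times for Bbc3, and by 1.53 times for Bad, 1.44 times for Pmaip1 and 1.37 times for Bcl2l11. For Mcl1, Bid, Bax and Bcl2l1 this ratio was 1.27 or less. Thus 6 of 10 members had a larger SD of log2 CPM than the median tested gene, close to the share that a median gives by definition. The comparison was not matched on level. Only 8.02%, 24.0% and 31.4% of tested genes had a lower mean CPM than Bcl2, Bak1 and Bbc3. The SD over libraries was 1.28 times the SD from counting for Bcl2, so its spread was close to what its few counts give, but 2.83 times for Bak1, 3.48 times for Bbc3, 4.06 times for Pmaip1 and 5.36 times for Mcl1.

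**Figure D4:**
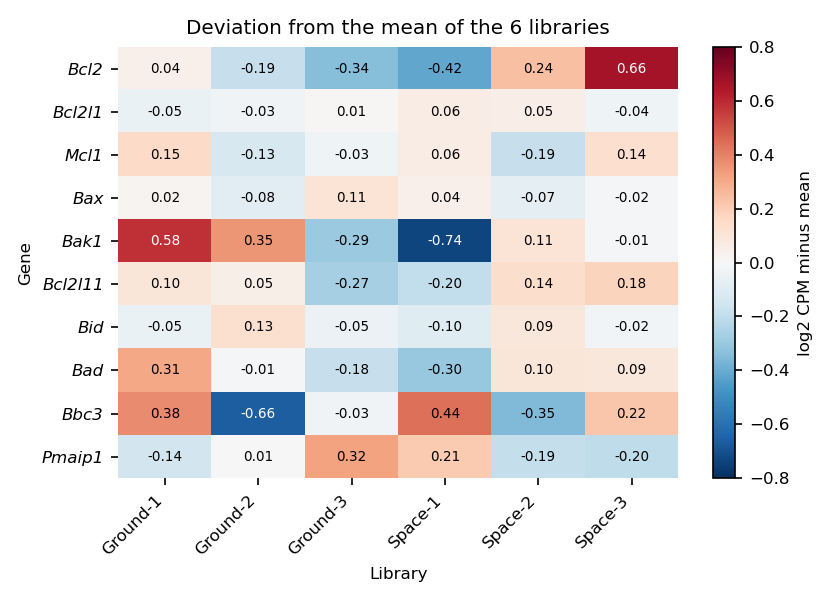
Deviation of log2 CPM from the mean over the 6 libraries, by gene (rows) and library (columns). In Ground library 3 and Space library 1, Pmaip1 is above its mean while Bcl2, Bak1, Bcl2l11 and Bad are below theirs.

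The members had different patterns over the libraries. The pairs of members with a Pearson r beyond 0.84 in size across the 6 libraries are named here. The share of all tested gene pairs beyond this cut was not computed, so nothing particular to the family is read from them. Opposite to each other ran Bcl2l11 and Pmaip1 (−0.99), Bid and Bbc3 (−0.94), Bcl2 and Pmaip1 (−0.85), Bax and Bid (−0.85), and Bad and Pmaip1 (−0.84). Together ran Bad and Bak1 (0.90), Bbc3 and Mcl1 (0.87), and Bcl2 and Bcl2l11 (0.85). These correlations describe 6 points that share library, depth and scaling, and they carry no test. In the pair of libraries where Pmaip1 was highest, Ground 3 and Space 1, Bcl2, Bak1, Bcl2l11 and Bad each had their lowest values. Bbc3 followed another order: it was highest in Space library 1 with a mitochondrial share of 2.51% and lowest in Ground library 2 with 11.5%, and the libraries between them ran in nearly the reverse order of that share. Mcl1 was lowest and Bid highest in the pair of libraries with the highest shares, Ground 2 and Space 2. Pmaip1 had no such order. The part of the mitochondrial share in these values was not tested.

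**Figure D5:**
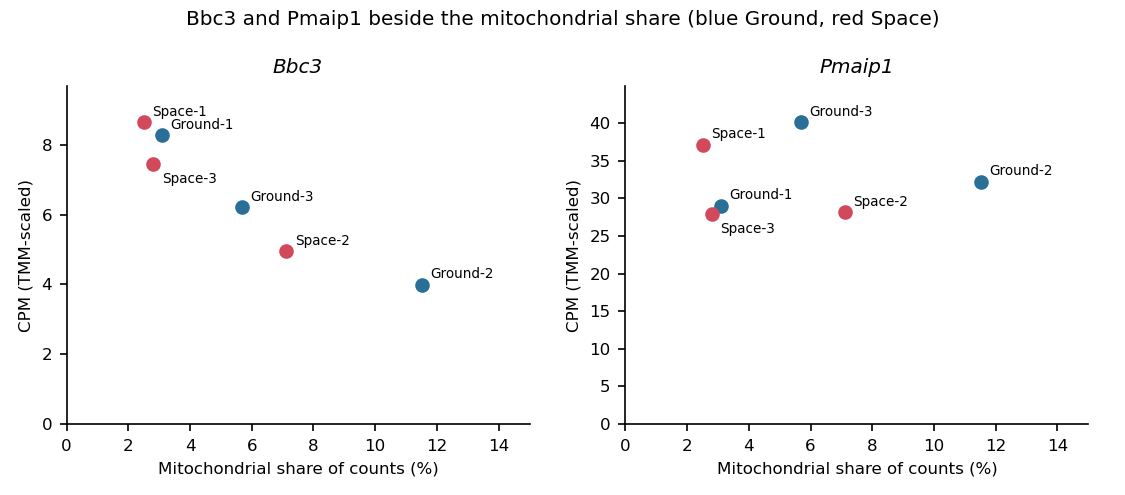
CPM of Bbc3 and Pmaip1 (linear axes from 0) against the share of counts from mitochondrially encoded transcripts, 1 point per library, Ground blue and Space red. Bbc3 goes from 8.65 CPM at 2.51% down to 3.99 CPM at 11.5%, while Pmaip1 is highest, at 40.1 CPM, at 5.69%.

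Genes with the pattern most like the members were sought among 10851 genes with a mean of at least 5 CPM, for the 3 most variable members above that level. With Bbc3 these were Helz (r = 0.996), an RNA helicase, Zswim6 (0.994) and 1700094D03Rik (0.984). With Pmaip1 they were Tecr (0.996), an enzyme of fatty acid elongation, Spg7 (0.996), a protease of the inner mitochondrial membrane, and Sesn3 (0.995), a sestrin. With Bad they were Ints12 (0.997), a subunit of the Integrator complex, Zscan18 (0.994) and Tsc22d4 (0.990). The fold over libraries was far smaller in some of them: Helz went from 142 to 175 CPM while Bbc3 went from 3.99 to 8.65 CPM. The best of 10851 genes over 6 libraries was picked each time, so the likeness is a description with no test.

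Of the rest of the Bcl2 family, 15 genes were listed and 11 were tested. None rose and none fell, with 3 higher and 8 lower in Space (48.7% of all tested genes were higher) and a median log2 difference of −0.036. Bcl2a1a, Bcl2a1b and Bcl2a1d, near-identical survival genes of blood cells, were at 0 counts in every library, and reads of such copies are uncertain. Hrk, a BH3-only gene, had the largest difference of the list, −0.65 (SE 0.42), from 1.28 ± 0.335 CPM in Ground and 0.811 ± 0.377 CPM in Space. Bcl2l13, a mitochondrial family member, was the only 1 of the 11 whose groups did not overlap, at 81.5 to 82.0 CPM in Ground and 74.7 to 80.8 CPM in Space. Among all tested genes 3.59% did not overlap, 1.98% with Space lower, and its log2 difference of −0.061 (SE 0.056) was close to its error. Bnip3 and Bnip3l, receptors for the removal of mitochondria, differed by −0.12 (SE 0.13) and 0.0024 (SE 0.061). Per length of all exons, Bok and the BH3-only genes Bmf (8.49 FPKM) and Bik (5.44 FPKM) had higher mean levels than Bak1 and Bbc3. So did Bcl2l2, Bcl2l12, Bcl2l13, Bnip3 and Bnip3l. Bmf and Bik were also chosen after their values were seen. Bok had 21.8, 24.0 and 15.1 CPM in Ground and 14.0, 22.3 and 20.5 CPM in Space, lowest in the same libraries as Bak1.

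Downstream, the apoptosome, the caspases and the proteins released from mitochondria gave 23 of 23 genes tested, with none rising and none falling, 12 higher and 11 lower in Space, and a median log2 difference of 0.0033. Xiap, an inhibitor of caspases, differed by −0.045 (SE 0.064), Vdac2, an outer membrane channel that binds Bak, by 0.066 (SE 0.087), and Aifm1, the apoptosis inducing factor, by 0.022 (SE 0.077).

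Upstream, 26 of 27 regulators of the members were tested, and none rose or fell, with 8 higher and 18 lower and a median of −0.0077. Ddit3, a transcription factor of the endoplasmic reticulum stress response, differed by −0.13 (SE 0.16), the survival kinases Akt1 and Pim3 by −0.048 (SE 0.058) and 0.059 (SE 0.057), Huwe1, a ubiquitin ligase that marks Mcl1 for destruction, by −0.014 (SE 0.079), and Bag6, a chaperone with a role in apoptosis, by −0.0053 (SE 0.061). Of factors whose motifs had a match in a member, Trp53, which encodes p53, had 34.1 FPKM, Foxo1 and Foxo3 had 26.4 and 28.5 FPKM, and E2f1 had 41.5 FPKM. Their log2 differences were −0.0038, 0.058, 0.029 and −0.0011. Beside these, the log2 differences of the members with a printed match were −0.033 (SE 0.066) for Bax, 0.18 (SE 0.30) for Bbc3, 0.083 (SE 0.14) for Bcl2l11 and 0.052 (SE 0.056) for Bcl2l1.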

How the data were processed

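Raw counts of reads per gene for the 6 libraries, not pooled, were deposited by the authors as 1 table. The submitters' processing notes name bcl2fastq 2.20, cutadapt 4.1, HISAT2 2.2.1, HTSeq 2.0.2 and mm10. The study's methods name GENCODE M21. Labels and methods differ on the library kit, sequencer and read layout, and HTSeq's mode and strand setting are not given in the sources used here. Reads in exons of overlapping genes may thus be lost or shared.

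Counts were tested with edgeR 4.0.16 (R 4.3.3) across all genes, in the steps filterByExpr, TMM scaling, the quasi-likelihood F test (2-sided, with no block), and Benjamini-Hochberg adjustment over 15104 genes with a threshold of 0.05. log2 CPM used a prior count of 2. FPKM used exon lengths of GENCODE M21 (GRCm38). Exact permutation tests used scipy 1.17.1 on Python 3.11.15. Alternatives were other scalings and filters, DESeq2 1.42.0, limma-voom (limma 3.58.1), 2 blocks, and each library left out.

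The members and lists were chosen with earlier results of these data known. Named genes were the 10 members, from each list the 3 with the smallest unadjusted p and the 2 with the highest CPM, and, for the 3 members with the largest SD among those of at least 5 CPM, the 3 genes and the member of highest r. Ddit3 has 2 identifiers, and that with more annotated transcripts was used. A result that the rule for named genes would give is not reported here.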

Additional observations from a re-analysis of the deposited data

How the results depend on the processing

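No member passed the threshold under any of the 14 alternatives. Of 140 member values under alternatives, 126 kept their direction and 14 reversed, none called. The reversed values were, for Mcl1, −0.053, −0.0036, −0.017 and −0.060 without Ground 2, Ground 3, Space 1 and Space 3, for Bax 0.00096 on total counts and 0.019 without Ground 3, for Bcl2l11 −0.018 without Ground 3, for Bid 0.021 on total counts, 0.044 without Ground 2 and 0.026 without Space 1, for Bad 0.069 without Ground 1 and 0.040 without Space 1, for Bbc3 −0.043 without Ground 2, and for Pmaip1 0.028 without Ground 3. Total counts moved the median of all genes from −0.0020 to 0.033. Leaving out 1 library gave log2 differences of 0.092 to 0.69 for Bcl2, 0.033 to 0.083 for Bcl2l1, −0.060 to 0.098 for Mcl1, −0.081 to 0.019 for Bax, −0.66 to −0.22 for Bak1, −0.018 to 0.19 for Bcl2l11, −0.067 to 0.044 for Bid, −0.18 to 0.069 for Bad, −0.043 to 0.46 for Bbc3 and −0.27 to 0.028 for Pmaip1, and 4 to 6 members higher in Space. Genes with an unadjusted p under 0.05 numbered 192 with no filter and 45 with DESeq2, and 64 to 161 with 1 library left out. With the length of the longest transcript, 1 neighbouring pair overlapped in place of 4, and the order of 4 members changed.

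The replicate number as a block called 0 members and 0 genes. Same-numbered libraries deviated from their group means with r of −0.54, 0.33 and −0.61. No label says whether the numbers pair the libraries. These values cannot settle it, since deviations within 3 libraries of a group constrain each other. A crossed matching (Ground 1 with Space 3, 2 with 2, Ground 3 with Space 1; r 0.64, 0.33, 0.67), which no label states and which was chosen from values of these libraries, called 38 genes (0.252%) and 0 members as a block. Unadjusted, 1097 genes (7.26%) and 2 members had p under 0.05: Bak1 (−0.45, edgeR adjusted p 0.478) and Pmaip1 (−0.12, adjusted p 0.667).

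Depth limits Bcl2 most, at 13 to 33 counts per library, and 3 libraries per group limit the other members.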
